A study of Bos taurus with 8 samples.

Results

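The genes described here build MHC class I molecules and supply them with peptides. They are the class I heavy chain names BOLA and BOLA-NC1, the light chain B2M, the peptide transporter subunits TAP1 and TAP2, the loading chaperone TAPBP (tapasin), the immunoproteasome subunits PSMB8, PSMB9 and PSMB10, and the class I transcription activator NLRC5. They were chosen by name, as the 10 listed genes out of 17696 genes with a symbol on the array, and their probes were found by the gene name in the scanner files or by the symbol of the probe's accession. In all, 36 probes of 60 bases matched these 10 genes.

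MHC class I molecules sit on the surface of most nucleated cells and show CD8 T cells and natural killer cells short peptides cut from the cell's own proteins. Proteasomes cut the proteins, TAP carries the peptides into the endoplasmic reticulum, and tapasin holds the heavy chain and its light chain beta-2-microglobulin near TAP until a peptide fits. Interferon gamma is known to raise the whole set, partly through NLRC5, whereas trophoblast cells of the ruminant placenta are known to carry little class I for much of gestation.

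RNA was hybridised to 8 Agilent arrays of bovine probes in 1 colour, 4 titled non-pregnant and 4 titled pregnant. The labels call all 8 samples fetal cotyledon, which is the part of the ruminant placenta that the fetus forms, from females, and describe the non-pregnant group as before pregnancy and the pregnant group as after it. They name cattle (Bos taurus) as the organism, while a protocol shared by both groups names gravid uteri of pregnant buffalo from a slaughterhouse. No age, breed, stage of pregnancy or treatment is given for either group, and nothing says that the 4 samples of a group came from separate animals, so the p-values below measure only the spread between these samples.

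Tissue markers went against the labels. Of 11 tested trophoblast genes, all 11 were lower on the arrays labelled pregnant, and CYP11A1, CDX2, PLAC1 and PEG10 were not well above background on any of those 4 arrays, although their tissue is labelled fetal cotyledon. Of 7 tested endometrium genes, 6 were higher there. The groups are therefore called "labelled pregnant" and "labelled non-pregnant", and every direction below rests on those labels. Across all tested probes, arrays of a group correlated at 0.943 to 0.989 and arrays of different groups at 0.736 to 0.783. The intensity at the 75th percentile of an array lay between 1168 and 1797 in the labelled non-pregnant group and between 798 and 1347 in the labelled pregnant group, and no spot was saturated. All 8 arrays lay on 1 slide, with the labelled non-pregnant arrays in row 1 and the labelled pregnant arrays in row 2, so slide row and group cannot be told apart.

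Every level below is the log2 signal of a probe minus the 75th percentile of its array, so that 0 marks the 75th percentile, and every difference subtracts the labelled non-pregnant mean from the labelled pregnant mean on that log2 scale. A gene stands for its tested probe with the highest mean level over the 8 arrays, and a probe entered the test if 4 or more of the 8 arrays flagged it as well above background. A gene or probe was called when its p-value from limma, adjusted by Benjamini-Hochberg over all 34597 tested probes, was under 0.05. The 4 values of a group are given in the order of the replicate numbers in the titles, which is not known to carry meaning.

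All 10 genes were tested and all 10 were called higher on the arrays labelled pregnant. Of all 13699 tested genes, 62.2% were called in some direction and 29.9% were called higher. None of the 10 was called lower by limma, and 0 were lower at an unadjusted p under 0.05. The 4 levels of each group did not overlap for any of the 10 genes, against 28.3% of tested genes that were higher with no overlap. The median difference of the 10 genes was 3.93, with a range from 1.58 for TAPBP to 6.59 for BOLA-NC1, whereas the median over all tested genes was -0.00 with quartiles of -0.99 and 1.02. In all, 2444 tested genes had a difference above the smallest of the 10. Because these are bulk samples, fewer cells of a type and less RNA per cell cannot be told apart.

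**Figure D1:**
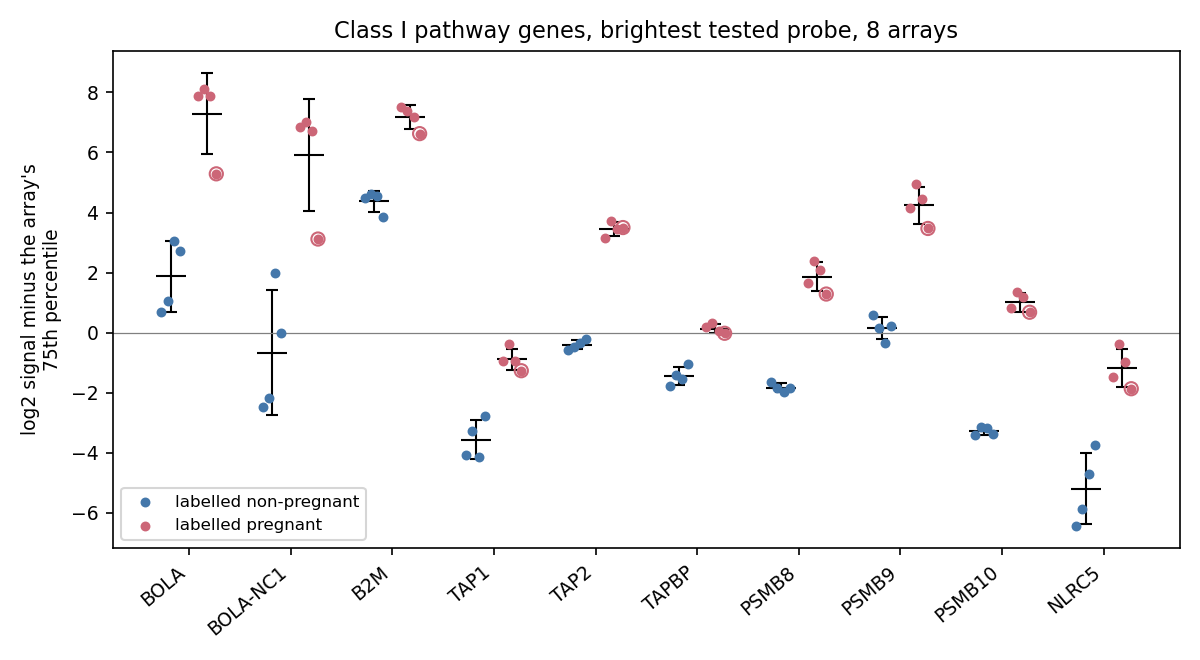
Level (log2 signal minus the array's 75th percentile) of the 10 class I pathway genes on 4 labelled non-pregnant (blue) and 4 labelled pregnant (red) arrays. Each point is 1 array, black bars are the group mean ± SD, and a ring marks labelled pregnant array 4, which is the lowest of its group for 9 of the 10 genes. The groups do not overlap for any gene; levels of different genes come from different probes and are not comparable.

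The heavy chain forms the peptide groove of the class I molecule, and cattle carry several class I loci whose sequences are close to each other. The name BOLA, which is no single locus, covers 14 probes, and BOLA-NC1, a non-classical class I gene, covers 3. For 1 of the 14 the scanner files give a transcript record instead of the name BOLA. That probe was well above background on only 2 of the 4 labelled non-pregnant arrays. Most heavy chain probes map to chromosome 23 in the build Btau_3.1 of the file headers, where the cattle MHC lies. The files list several RefSeq records for 7 of the 16 tested heavy chain probes, so a probe can take up RNA of related copies and alleles. How close the copies are is shown by 3 BOLA probes that read the same final 60 bases of a heavy chain open reading frame, up to and including its stop codon, at different places of chromosome 23. They are printed 5′ to 3′, with capitals at the 5 positions where they differ from each other.
BOLA tail 1, chr23:27805895-27806255, plus strand: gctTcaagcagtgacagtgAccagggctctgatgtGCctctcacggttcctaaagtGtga
BOLA tail 2, chr23:27846342-27846701, plus strand: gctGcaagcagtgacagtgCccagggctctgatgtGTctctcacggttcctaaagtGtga
BOLA tail 3, chr23:28656079-28656442, minus strand: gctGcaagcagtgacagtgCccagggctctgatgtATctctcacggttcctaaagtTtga

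Each of these 3 probes spans 360 to 364 bases of the build, more than its own 60 bases, so each crosses at least 1 gap in the alignment. Counted from 1 at the 5′ end, tail 1 differs from tail 2 by T4G, A20C and C37T, and tail 2 differs from tail 3 by G36A and G57T.

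Tail 1 read -0.03, 0.75, 0.81 and 0.75 on the labelled non-pregnant arrays and 5.75, 5.87, 5.52 and 4.81 on the labelled pregnant arrays. Tail 2 read -0.70, 0.11, 0.49 and 0.11 against 5.27, 5.44, 5.08 and 4.34. Tail 3 read -1.71, -0.81, -0.36 and -0.93 against 4.39, 4.41, 4.14 and 3.57. In all 3, the labelled pregnant arrays were higher with no overlap, non-pregnant array 1 was the lowest of its group and pregnant array 4 the lowest of the other. The differences were 4.91 ± 0.30 (SE, n = 4 against 4) for tail 1, 5.03 ± 0.32 for tail 2 and 5.08 ± 0.32 for tail 3, with limma adjusted p-values of 2.32e-06, 3.15e-06 and 2.83e-06. These differences lay within 1 SE of each other, and since the probes can bind each other's targets they are no independent readings of 3 loci.

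The BOLA probe with the highest mean level, chr23:28655800-28655859 on the minus strand, varied much more between arrays of a group. It read 0.68, 1.07, 3.04 and 2.71 on the labelled non-pregnant arrays and 7.88, 8.12, 7.88 and 5.29 on the labelled pregnant arrays. The groups did not overlap, but non-pregnant arrays 3 and 4 lay above 1 and 2, and pregnant array 4 lay well below the other 3. The difference was 5.42 ± 0.75 (SE, adjusted p = 0.000272).

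BOLA-NC1 showed the same order of arrays with a wider spread. Its probe at chr23:28483940-28483999 read -2.46, -2.18, 1.99 and -0.02 against 6.83, 7.01, 6.72 and 3.12. The groups did not overlap, although pregnant array 4 lay nearer to non-pregnant array 3 than to the other labelled pregnant arrays. The difference was 6.59 ± 1.16 (SE, adjusted p = 0.00115). This probe shares a run of 41 bases with the BOLA probe of highest level, so these are in part the same measurement. A second BOLA-NC1 probe, chr23:28486347-28486406, differed by 6.30, and the last at chr23:28486831-28486890 was not well above background on any of the 8 arrays and was not tested.

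All 14 BOLA probes were called higher, with differences from 1.85 to 6.36 and a median of 5.38. The smallest came from the probe at chr23:27770627-27770686, which read -1.87, -1.82, -1.92 and -2.35 against 0.65, 0.29, -0.33 and -1.17. Its groups did not overlap either (adjusted p = 0.00246). Over the 16 tested heavy chain probes, pregnant array 4 was the lowest of its group in 16 and non-pregnant array 1 the lowest of its group in 14. Other class I heavy chain names were checked beside them. BOLA-A, a class I name with 1 probe, was higher by 5.11 ± 0.30 (SE, adjusted p = 1.91e-06). JSP.1, a further class I heavy chain, was higher by 3.87 ± 0.19 (SE, adjusted p = 9.34e-07), and its 2 other tested probes were called higher too. Of these, the probe at chr23:28601451-28601510 was not well above background on any labelled non-pregnant array. It passed the filter through the labelled pregnant group and had to differ. The other 4 listed names (BOLA-B, BOLA-NC2, BOLA-NC3 and BOLA-NC4) were matched to no probe.

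B2M rose on all 4 of its tested probes. It encodes beta-2-microglobulin, which pairs with every class I heavy chain and also with relatives such as CD1. The probe of highest level, chr10:106114776-106114835, read 4.48, 4.61, 4.54 and 3.84 on the labelled non-pregnant arrays and 7.53, 7.38, 7.20 and 6.63 on the labelled pregnant arrays. Array 4 was the lowest in both groups, and the groups were apart by more than 2 log2 units at their nearest values. The difference was 2.81 ± 0.26 (SE, adjusted p = 2.71e-05), a 7.03-fold difference in signal. The other 3 tested B2M probes differed by 3.53, 4.05 and 4.31, so the size depended on the probe.

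B2M also offered a check of the strand. The probe at chr10:106114274-106114333 on the plus strand read 1.44, 1.77, 1.52 and 2.06 against 5.88, 6.25, 5.81 and 5.06, a difference of 4.05. A minus-strand probe at the same place is its reverse complement over all 60 bases. That probe read between -8.65 and -8.08 on the labelled non-pregnant arrays and between -7.99 and -7.28 on the labelled pregnant arrays, and it was well above background on 0 of 8 arrays. Signal above background was thus found on the strand of the B2M transcript and not on the other.

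TAP1 and TAP2 form the transporter that pumps peptides from the cytosol into the endoplasmic reticulum. TAP2, chr23:7345518-7345577, read -0.56, -0.46, -0.36 and -0.22 against 3.14, 3.72, 3.46 and 3.50. Within each group the arrays lay close together, with SDs of 0.14 and 0.24, and pregnant array 4 was not low here as it was for the other 9 genes. The difference was 3.86 ± 0.19 (SE, adjusted p = 7.96e-07). A probe that the files describe as TAP2, but name only by a cluster number, lies nearby at chr23:7345208-7345267 and differed by 3.77 ± 0.19 (SE).

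TAP1 depended on where in the gene it was read. Its probe of highest mean level, chr23:7386309-7386368, read -4.06, -3.28, -4.13 and -2.76 against -0.95, -0.39, -0.96 and -1.27, a difference of 2.67 ± 0.34 (SE, adjusted p = 0.000178). A probe at chr23:7387745-7387804 differed by 2.49 (adjusted p = 0.000979). The third probe, chr23:7391834-7392322, read -3.79, -3.68, -3.56 and -3.59 against -3.18, -2.90, -3.29 and -3.51, so the groups did not overlap but nearly touched. Its difference was 0.44 ± 0.19 (SE), and it did not pass the threshold (adjusted p = 0.0692). It is the only 1 of the 33 tested probes of the 10 genes that was not called. All 3 TAP1 probes lie on the minus strand, and the third lies farthest towards the 5′ end of the gene. It was called with the percentile taken over detected probes only (33 of 33 probes) and when labelled pregnant array 4 was left out.

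TAPBP encodes tapasin, which bridges TAP and the heavy chain. It had the smallest difference of the 10 genes. Its probe, chr23:7767636-7767695, read -1.76, -1.42, -1.54 and -1.03 against 0.19, 0.34, 0.04 and -0.02. The groups did not overlap, and the difference was 1.58 ± 0.20 (SE, adjusted p = 0.000186).

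The tapasin relative TAPBPL, a peptide editor that works outside the TAP complex, differed by 3.44 ± 0.17 (SE, adjusted p = 8.25e-07). General chaperones of the endoplasmic reticulum that help fold class I were mostly called lower. Of the 8 genes listed as chaperones and tapasin relative, 7 were tested, 1 was called higher (TAPBPL) and 6 were called lower, with a median of -0.996; of all tested genes, 32.3% were called lower. Under quantile normalization 4 of the 7 were called lower. HSPA5 (BiP) fell by 1.60, HM13 (signal peptide peptidase) fell by 1.15 and CALR (calreticulin) fell by 1.06. CANX (calnexin) fell by 0.75 and PDIA3 (a disulfide isomerase) fell by 0.99, but neither was called under quantile normalization (-0.19 and -0.61). The fall of PDIA3 was not called with the percentile over detected probes either (adjusted p = 0.0664). UGGT1, which returns misfolded glycoproteins for refolding, was on the array but not tested.

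**Figure D2:**
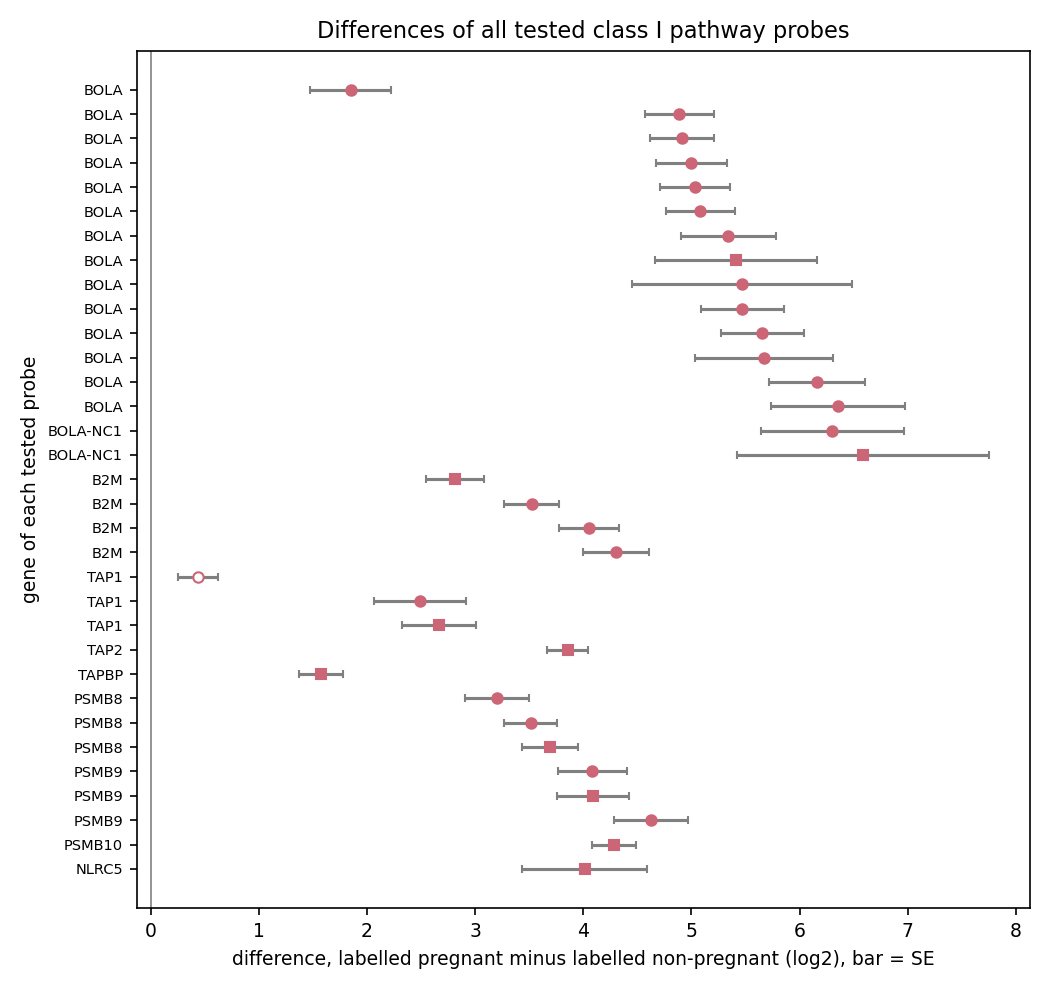
Difference (log2, labelled pregnant minus labelled non-pregnant) of the 33 tested probes of the 10 genes, with bars for the SE; squares are the probes that stand for a gene and circles the other probes. Filled symbols were called at an adjusted p under 0.05; the open circle is the third TAP1 probe at 0.44. BOLA and BOLA-NC1 hold the largest differences and TAP1 the smallest.

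The 33 tested probes tell how far a gene's value depends on its probe. Of them, 32 were called higher and 0 lower, against 30.3% of all tested probes called higher, and the groups overlapped for none. The other 3 of the 36 probes were too dim to test: the B2M minus-strand probe, a BOLA-NC1 probe and a PSMB9 probe. A probe can pass the filter through its brighter group alone, and 27 of the 36 were well above background on all 8 arrays. Among the 36 probes, 15 share a run of at least 20 bases with another of them, so their values are not independent.

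PSMB8, PSMB9 and PSMB10 are the catalytic subunits of the immunoproteasome, which cuts peptides with ends that suit class I. PSMB8, chr23:7379740-7379799, read -1.64, -1.85, -1.98 and -1.85 against 1.67, 2.40, 2.09 and 1.29. PSMB9, chr23:7399910-7399969, read 0.59, 0.16, -0.33 and 0.21 against 4.14, 4.94, 4.44 and 3.47. PSMB10, chr18:34441558-34441728, read -3.41, -3.15, -3.16 and -3.38 against 0.82, 1.34, 1.20 and 0.68. In all 3 genes pregnant array 2 was the highest and array 4 the lowest of the labelled pregnant group, and the groups lay at least 2 log2 units apart.

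PSMB8 differed by 3.69 ± 0.26 (SE, adjusted p = 4.80e-06), and its 2 other probes by 3.20 and 3.52. PSMB9 differed by 4.09 ± 0.33 (SE, adjusted p = 1.15e-05), and its 2 other tested probes by 4.08 and 4.63. PSMB10, on another chromosome and read by 1 probe, differed by 4.29 ± 0.20 (SE, adjusted p = 7.28e-07).

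Each of these subunits takes the place of a constitutive subunit, PSMB5, PSMB6 or PSMB7. Those 3 were called lower: PSMB5 by -1.10 ± 0.22, PSMB6 by -1.48 ± 0.24 and PSMB7 by -1.34 ± 0.24 (SE), with adjusted p-values of 0.00215, 0.000609 and 0.00112. Within each array the level of the constitutive subunit was subtracted from that of its replacement. The subtraction removes the scaling of the array, and only its change between groups can be read, since the subunits are on different probes.

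PSMB8 minus PSMB5 was -6.51 ± 0.27 (SD, n = 4) on the labelled non-pregnant arrays and -1.72 ± 0.46 on the labelled pregnant arrays, a change of 4.79. PSMB9 minus PSMB6 was -4.52 ± 0.37 and 1.05 ± 0.44, a change of 5.57. PSMB10 minus PSMB7 was -10.05 ± 0.43 and -4.43 ± 0.17, a change of 5.62. The groups did not overlap for any pair. The exact two-sided permutation test gave p = 0.0286 for each of the 3 pairs, the smallest that 4 arrays against 4 allow, and 0.0286 after adjustment over the 3. Both subunits of each pair already separated the groups without overlap, in opposite directions. This p-value was therefore fixed before the test and adds nothing to the calls of the single genes.

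**Figure D3:**
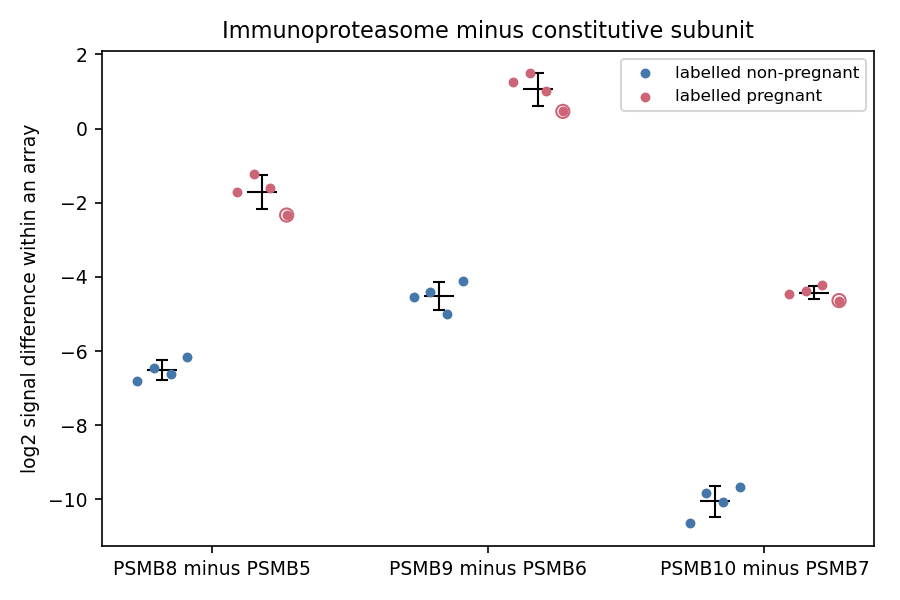
Log2 signal of an immunoproteasome subunit minus that of the constitutive subunit it replaces, on each of 4 labelled non-pregnant (blue) and 4 labelled pregnant (red) arrays, with the group mean ± SD in black and a ring at labelled pregnant array 4. The shift between groups is 4.79, 5.57 and 5.62; the height of a pair has no meaning of its own because the subunits are on different probes.

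Genes that trim peptides or activate and assemble proteasomes moved both ways. Of 12 listed and tested genes, 2 were called higher, 4 lower and 6 in neither direction, with a median of -0.20. Over all tested genes 29.9% were called higher and 32.3% lower, so the 4 lower calls of 12 lie near the share over all genes. ERAP2, which trims peptides in the endoplasmic reticulum, rose by 2.92 ± 0.43 (SE, adjusted p = 0.000382). PSME1, a subunit of the interferon-inducible proteasome activator, rose by 0.58, a call that was lost with median scaling (0.20) and with no scaling (0.10). ERAP1, the other trimming enzyme of that compartment, differed by 0.46 and was not called (adjusted p = 0.343), although 1 of its 2 other tested probes was called higher, and with no scaling it differed by -0.03. BLMH (bleomycin hydrolase, a cytosolic peptidase) fell by 3.21, PSME3 (the nuclear proteasome activator) fell by 2.38 and LAP3 (a cytosolic aminopeptidase) fell by 1.44. POMP, which assembles new proteasomes, fell by 0.84, a call that was lost under quantile normalization (-0.27).

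NLRC5 switches on class I genes and several of their loading partners. It is named only through the description in the scanner files, and the files give no position for its probe. It read -6.42, -5.87, -4.71 and -3.75 against -1.47, -0.39, -0.98 and -1.86. The groups did not overlap, but the labelled non-pregnant values ran over more than 2 log2 units and the probe was well above background on 3 of those 4 arrays. The difference was 4.01 ± 0.58 (SE, adjusted p = 0.000345).

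Other transcription factors of class I genes were mixed. Of 16 tested, 7 were called higher, 4 lower and 5 in neither direction, against 29.9% higher and 32.3% lower over all tested genes. Their median was 0.37, which turned to -0.01 with median scaling and -0.11 with no scaling. IRF1, the interferon-induced activator that binds class I promoters, read -1.91, -1.68, -1.67 and -1.69 against 3.03, 3.16, 3.01 and 2.39, a difference of 4.63 ± 0.21 (SE, adjusted p = 5.56e-07). CIITA, the class II counterpart of NLRC5, was not well above background on any labelled non-pregnant array and was at least 16.0-fold higher on the labelled pregnant arrays (adjusted p = 7.25e-07). This lower bound sets the mean of the higher group against the dimmest signal that counted as detected on the arrays of the other. CIITA passed the filter through the labelled pregnant group and had to differ, so its call and p-value add nothing. IRF9 rose by 2.50. Factors known to bind class I promoters together with NLRC5 differed among themselves. RFXAP fell by 1.68, RFX5 fell by 0.94 and NFYA fell by 2.09, although the other tested probe of NFYA was not called. NFYB differed by 0.22 without a call, and by -0.17 with median scaling and -0.27 with no scaling. NFYC differed by -0.32 without a call; it was called lower with median scaling and with no scaling, and differed by 0.08 under quantile normalization. ATF1 differed by 0.52 without a call (adjusted p = 0.0594) and was called higher with the percentile over detected probes (0.69) and under quantile normalization (0.65), while its other tested probe was called lower. RFXANK differed by -0.07 without a call, and by 0.09 with the percentile over detected probes and 0.18 under quantile normalization.

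Calls among interferon signalling genes depended on the scaling. Of 11 listed, 9 were tested, 2 were called higher, 1 lower and 6 in neither direction, with a median of -0.04. The shares over all tested genes were 29.9% higher and 32.3% lower. With the percentile over detected probes, and under quantile normalization, 4 were called higher and 1 lower, TYK2 and IFNGR2 being added. The median turned to 0.12 with the percentile over detected probes, 0.33 under quantile normalization and 0.28 with normexp background correction. The receptor chain IFNGR1 rose by 2.01 ± 0.28 (SE, adjusted p = 0.000259) and the kinase JAK1 by 1.95 ± 0.17 (SE, adjusted p = 1.79e-05), while the kinase JAK2 fell by 0.65. The cytokine gene IFNG itself was not tested because its probes were too dim.

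Genes of proteins built like class I, several of which bind B2M, were mostly called higher. Of 15 listed, 9 were tested, 7 were called higher and 2 lower, with a median of 2.09. With no scaling and under quantile normalization 5 were called higher, the calls of MR1 and CD1D being lost. The share called higher among all tested genes was 29.9%. Summed on the linear scale, the list lay between 48.6 and 58.3 on the labelled non-pregnant arrays. On the labelled pregnant arrays this sum lay between 27.3 and 40.2, with no overlap. ULBP3, a stress ligand for the receptor NKG2D, differed by 4.51 ± 0.75 (SE), AZGP1, a secreted class I-like protein, by 4.44 ± 0.42 and CD1E, a lipid antigen chaperone, by 4.11 ± 0.36. CD1B was not well above background on any labelled non-pregnant array and was at least 9.0-fold higher on the labelled pregnant arrays. It passed the filter through the labelled pregnant group and had to differ. FCGRT, the B2M-bound antibody transporter, fell by 0.93, a call that was lost under quantile normalization (-0.37). CD1A fell by 0.98 (adjusted p = 0.0479), a call that was lost with the percentile over detected probes and that turned to 0.03 with normexp background correction.

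**Figure D4:**
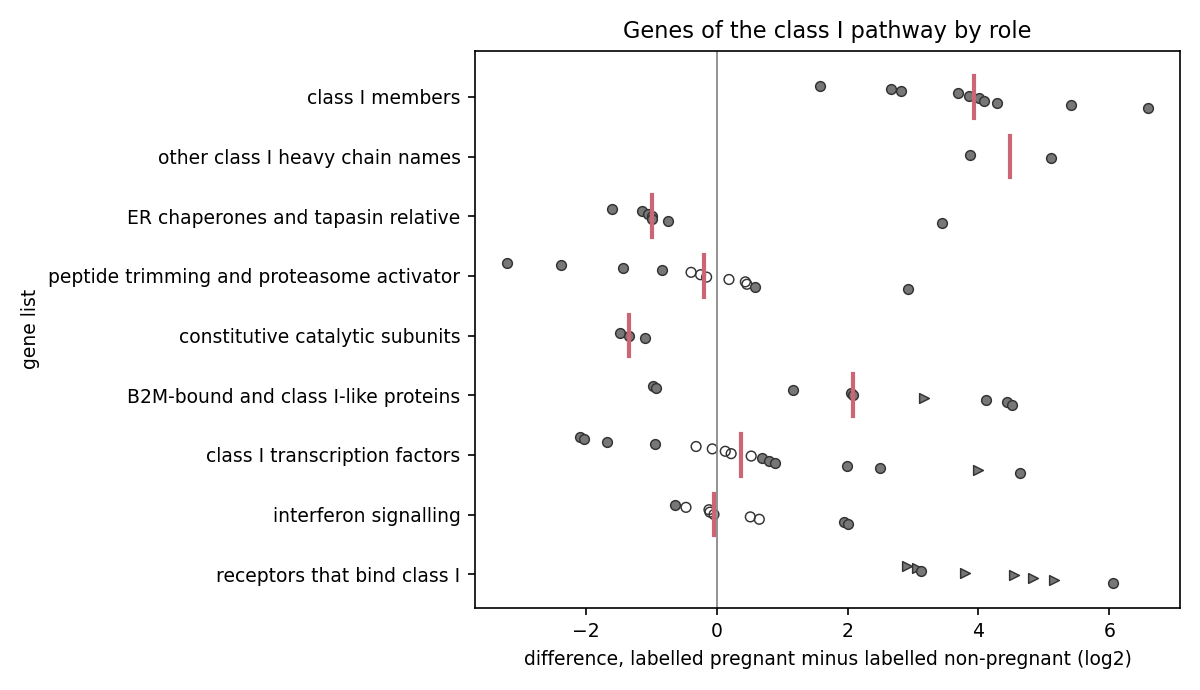
Difference (log2, labelled pregnant minus labelled non-pregnant) of each tested gene of the class I pathway, grouped by role; filled points were called at an adjusted p under 0.05, open points were not, triangles are lower bounds for genes not well above background on any labelled non-pregnant array, and the red line is the list's median (none for the receptors, where most values are bounds). The 10 class I genes have a median of 3.93, while the medians of the chaperones (-0.996) and constitutive subunits (-1.34) lie below 0.

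Receptors that recognise class I were called higher wherever they were tested, 8 of 12 listed genes. CD8A, the co-receptor chain of cytotoxic T cells, read -3.61, -3.80, -3.96 and -3.87 against 1.99, 3.70, 2.72 and 0.57, a difference of 6.05 ± 0.57 (SE, adjusted p = 2.60e-05). For 6 of the 8 no labelled non-pregnant array was well above background, so these genes passed the filter through the labelled pregnant group and had to differ, and no median of the list is given. Among them KLRK1, which encodes NKG2D, was at least 35.7-fold higher and KLRD1, which encodes CD94, at least 23.2-fold higher.

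Markers of other cell types differed between the groups too, some upwards and some downwards. All 6 tested T cell markers and all 6 tested cytotoxic and NK cell markers were called higher, and 3 of 4 pan-leukocyte markers were. Of all tested genes, 29.9% were called higher. PTPRC, which encodes the leukocyte surface protein CD45, was the fourth and differed by 0.01 without a call, and by -0.37 with median scaling, -0.47 with no scaling and -0.08 with normexp background correction. The call of the T cell marker CD3D was lost with median scaling and with no scaling. Summed on the linear scale, in multiples of an array's 75th percentile, the T cell markers lay between 3.09 and 4.37 on the labelled non-pregnant arrays and between 9.83 and 26.5 on the labelled pregnant arrays. The cytotoxic and NK cell markers lay between 0.300 and 0.516 and between 3.77 and 18.04, and the pan-leukocyte markers between 9.44 and 19.7 and between 22.03 and 81.9. CD3G, CD5, CD27, GZMA, PRF1 and CST7 were not well above background on any labelled non-pregnant array. These 6 passed the filter through the labelled pregnant group and had to differ. The part of these cells in the class I differences was not tested.

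Myeloid markers were split, with 3 of 7 called higher and 3 lower and a median difference of 0.76, while their sum was lower (100 to 146 against 22.5 to 46.8). For this and the lists below, the shares over all tested genes were 29.9% higher and 32.3% lower. The lower call of the myeloid marker LYZ was lost with the percentile over detected probes and under quantile normalization. Of 4 tested B cell markers, 2 were called higher and 1 lower, and their sum ranged from 3.59 to 6.01 and from 3.97 to 59.5. Of 6 tested smooth muscle markers, 5 were called higher (4 with median scaling and with no scaling), and their sum was 17.9 to 25.8 against 41.9 to 96.0. Of 7 endothelium markers, 2 were called higher, 1 lower and 4 in neither direction, and their sum was 12.3 to 14.6 against 21.6 to 29.2. The sum of the endometrium markers lay between 1.48 and 3.63 on the labelled non-pregnant arrays and between 96.8 and 223 on the labelled pregnant arrays, with ESR1 and HOXD10 not well above background on any labelled non-pregnant array. The sum of the trophoblast markers lay between 578 and 898 on the labelled non-pregnant arrays and between 1.31 and 4.32 on the labelled pregnant arrays, and that of the erythroid markers, all 7 of them called lower, between 337 and 604 and between 0.623 and 2.86. ESR1 and HOXD10, like the trophoblast and erythroid genes not well above background on any labelled pregnant array, passed the filter through 1 group alone. For these tissue markers too, their part in the class I differences was not tested.

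Array 4 of the labelled pregnant group was low both for the class I genes and for several marker sums. It was the lowest of its group for 9 of the 10 genes and pregnant array 2 the highest for 9. Summed over the 10 genes, the linear level was 568, 628, 529 and 175 on the labelled pregnant arrays and 24.9 to 37.9 on the labelled non-pregnant arrays. This sum weighs the brightest probes most, among them the BOLA and BOLA-NC1 probes that share 41 bases, so it does not give the size for each gene. As a median over the 10 genes, labelled pregnant array 4 deviated from its group mean by only -0.57. The T cell sum was 14.2, 26.5, 18.03 and 9.83 on the same labelled pregnant arrays, the pan-leukocyte sum 44.8, 81.9, 58.0 and 22.03, and the endometrium sum 223, 211, 200.5 and 96.8. Array 4 was the lowest in each of these sums, while arrays 1 and 3 changed places between them. It was also the lowest in the chaperone (170.6), cytotoxic and NK cell (3.77), myeloid (22.5), smooth muscle (41.9) and trophoblast (1.31) sums, among others. In the constitutive subunit, peptide trimming, transcription factor, endothelium and erythroid sums it was not. Its 75th percentile was the highest of its group (1347). Its correlations with the other labelled pregnant arrays were the lowest of the group, 0.943 to 0.951. The B cell sum was 3.97, 59.5, 22.1 and 19.96, with array 1 the lowest. Array 2 was the highest in the class I, T cell, B cell and pan-leukocyte sums, but not in the endometrium sum. All 10 class I genes were called higher without labelled pregnant array 4, with a median difference of 4.06.

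Position on the chromosome was compared next, because TAP2, PSMB8, TAP1 and PSMB9 lie within chr23:7345518-7399969, beside class II genes. Gene order was taken from the assembly ARS-UCD2.0, for names of neighbours only. From BOLA-DOB to TAPBP, 30 genes in a row, 22 were tested, of which 11 were called higher and 4 lower. Of all tested genes, 29.9% were called higher and 32.3% lower. The first 6 tested genes, up to PSMB9, were all called higher; TAP2, PSMB8, TAP1, PSMB9 and the TAP2-like LOC618733 differed by 2.67 to 4.09, and the class II gene BOLA-DOB, not well above background on any labelled non-pregnant array, was at least 15.3-fold higher. BOLA-DOB passed the filter through the labelled pregnant group and had to differ, so its call adds nothing to this run. LOC618733 was well above background on 1 of the 4 labelled non-pregnant arrays.

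The genes after PSMB9 were mixed. The histone gene H2B, next to PSMB9 among the tested genes, was lower (-1.65), whereas the class II genes BOLA-DMB (5.96) and BOLA-DOA (3.46), BRD2 (1.16) and the collagen gene COL11A2 (1.81) were called higher. For COL11A2 the groups overlapped and 1 of the 4 labelled non-pregnant arrays was well above background. In the remaining stretch before TAPBP, from RXRB to RGL2, 10 genes were tested, 0 were called higher by limma (0 also at an unadjusted p under 0.05) and 3 were called lower. Over all tested genes these shares were 29.9% and 32.3%, so 3 lower calls of 10 lie near the share over all genes. Under quantile normalization 1 of these 10 was called higher (RXRB, by 0.63), and with median scaling 7 were called lower. The ends of these stretches were chosen after the values were seen. TAPBP is the next gene after that stretch and differed by 1.58. The nearest tested genes before TAPBP were RGL2, a Ras pathway gene, and PFDN6, a prefoldin subunit. RGL2 differed by 0.41 without a call (-0.08 with no scaling) and PFDN6 by -1.67. Genes beyond TAPBP were not examined.

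**Figure D5:**
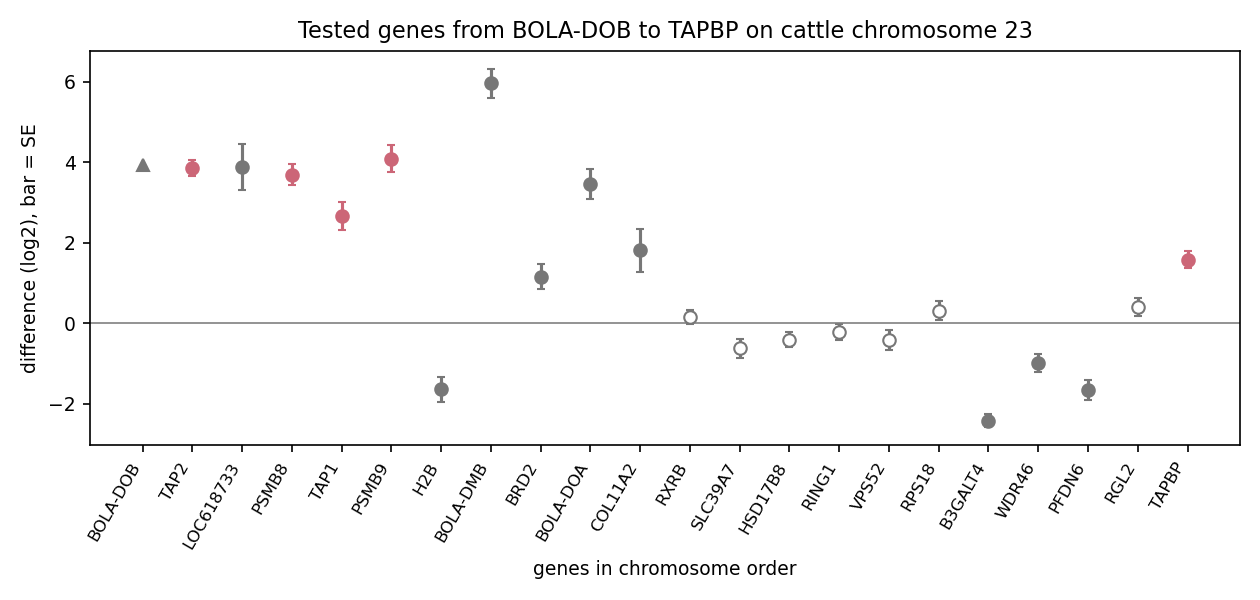
Difference (log2, labelled pregnant minus labelled non-pregnant, bars are SE) of the 22 tested genes from BOLA-DOB to TAPBP in chromosome order; red marks TAP2, PSMB8, TAP1, PSMB9 and TAPBP, grey their neighbours, the triangle is a lower bound, and open symbols were not called. TAP2, PSMB8, TAP1 and PSMB9 lie between 2.67 and 4.09, the genes from RXRB to RGL2 between -2.42 and 0.41, and TAPBP at 1.58.

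For each of the 10 genes, the genes with the most similar pattern over the 8 arrays were found as those with the smallest root mean square gap between mean-centred log2 levels. B2M was closest to RIPK3 (gap 0.085), TAP2 to TLR4 (0.166), TAPBP to RHOQ (0.156) and TAP1 to C16H1orf105 (0.224). PSMB8 was closest to STING1 (0.224), PSMB9 to LOC751788 (0.234), PSMB10 to AMY2B (0.207), with IRF1 the third closest (0.228), and NLRC5 to VXN (0.343). BOLA was closest to UPK3BL2 (0.401) and BOLA-NC1 to KLK10 (0.797), wider gaps than for the other 8. These gaps describe 8 arrays in 2 groups that differ for most genes.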

How the data were processed

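The deposited scanner files hold spot intensity values that, per the file headers, came from Agilent Feature Extraction 11.5.1.1 (protocol GE1_1105_Oct12), background-subtracted and not scaled between arrays. The same files, as the authors deposited them, flag spots as 0 or 1 for signal well above background, saturation and outlying pixels. A further table deposited by the authors holds log2 values; each column correlated with the log2 intensity of its array at 0.999 or more, with a 75th percentile near 0. Neither scale nor centring is stated for it, so both were inferred from its values. Column medians ran from -4.21 to -3.56, and no centring per probe was seen.

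Control spots (1319 per array) and 119 outlier spots were left out, log2 spots of a probe were averaged (10275 of 51282 probes had several), and the array's 75th percentile was subtracted. An array counted as detecting a probe if 0.5 or more of the probe's spots carried the flag for signal well above background. A further 30 probes passed the filter but lacked an array through an outlier flag. Names came from accessions in the RefSeq table of ARS-UCD2.0 (28112 probes), the file's symbol (7018), its description (2671), another accession (722) or a synonym (159). For 12600 the name in the file stayed, and 38682 probes had a symbol. Coordinates are the files' own (Btau_3.1), and exon, intron or UTR positions were not analysed here.

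The test between groups was limma (version 3.58.1, lmFit and eBayes, run in R 4.3.3) over all 8 arrays without covariates, a step tested on simulated data. The number of arrays, 4 a group, limits the precision. Subunit pairs were compared by exact permutation. All 10 genes are named, with the 3 largest non-overlapping called differences of each pathway list, PSMB5, PSMB6 and PSMB7, and the closest patterns; further genes of a list, such as CALR, CANX, PDIA3, POMP, PSME1, LAP3, ERAP1, RFXAP, RFX5, RFXANK, NFYA, NFYB, NFYC, ATF1, MR1, CD1D, FCGRT, CD1A and CD1B, and the chromosomal neighbours were named after their values were seen. The genes and lists were chosen with earlier results of these data known. Background correction, scaling, filters, probe choice, the authors' table, a replicate block and leaving out each array were tried as alternatives. Deviations of same-numbered arrays correlated at 0.009, 0.075, 0.050 and 0.155, and those of differently numbered arrays at -0.113 to 0.048. With 4 arrays a group, these values cannot tell whether replicate numbers pair the arrays.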

Additional observations from a re-analysis of the deposited data

Results flagged for a closer look

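In 72 groups of 4 arrays (each tested probe of the 10 genes and the 3 subunit pairs, in both groups), 4 had an array whose gap to its nearest neighbour exceeded Dixon's limit for 4 values, as a share of the group's range; chance alone gives about 1 in 20. For the BOLA probe of highest level, labelled pregnant array 4 stood at 5.29 against 7.88 to 8.12 on the others (gap 0.916 of the range). For the BOLA-NC1 probe of highest level the same array stood at 3.12 against 6.72 to 7.01 (0.924), and these probes share 41 bases. For the BOLA probe called tail 1, labelled non-pregnant array 1 stood at -0.03 against 0.75 to 0.81 (0.926). For the B2M probe of highest level, labelled non-pregnant array 4 stood at 3.84 against 4.48 to 4.61 (0.838).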

How the results depend on the processing

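Over 18 alternatives, between 9 and 10 of the 10 genes were called higher; the 9 came from requiring signal well above background on all 8 arrays, where NLRC5 was not tested. Over 17 alternatives, 26 to 34 probes were called higher, 26 of 27 under that strict filter and 34 of 36 without a filter. The differences of the 10 genes kept their direction and call in all 179 recomputed values, ranging for example from 1.09 to 1.74 for TAPBP, 2.33 to 3.67 for B2M and 2.58 to 4.49 for NLRC5. Scaling by the median moved the median difference of all genes to -0.39, no scaling to -0.49 and the percentile over detected probes to 0.16; the median of the 10 genes was then 3.55, 3.45 and 4.10. The share of calls that were higher was 48.1%, and 35.2% with median scaling and 31.8% with no scaling.

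Leaving out each array in turn kept the change between 4.63 and 4.99 for PSMB8 minus PSMB5, 5.41 and 5.77 for PSMB9 minus PSMB6, and 5.43 and 5.75 for PSMB10 minus PSMB7, with an exact permutation p of 0.0571, the smallest that 3 arrays against 4 allow. With the replicate number as a block (replicate block), the 3 changes were 4.79, 5.57 and 5.62 with an exact permutation p of 0.125, the smallest that 4 pairs allow. These permutation p-values were fixed too, because the subunits of each pair already separated the groups. In limma that block left all 10 genes called higher. Array signal near background limits NLRC5 and the dimmer BOLA and BOLA-NC1 probes, and 9 of the 10 genes were well above background on all 8 arrays.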
